A study of Homo sapiens with 6 samples.

Results

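The DNAJ (HSP40) family of cochaperones was examined in C4-2B-ENZR, an enzalutamide-resistant human prostate cancer cell line, by RNA sequencing. Members were the protein-coding genes with a symbol made of DNAJ, a class letter (A, B or C) and a number. Of 57820 genes in each file, 43 symbols fitted this pattern; 42 were protein-coding and DNAJB3, a pseudogene, was left out. The 42 members were 4 of class A, 12 of class B and 26 of class C. All cells were C4-2B-ENZR grown in serum-containing medium, and they carried either a negative-control siRNA (3 libraries) or an siRNA against RUVBL1, an AAA+ ATPase of chromatin-remodelling and protein-assembly complexes (3 libraries). The labels name no siRNA sequence and no harvest time, and do not say how many siRNA sequences were used, so effects of RUVBL1 loss and of the siRNA itself cannot be told apart. A single cell line was used. Nothing in the labels says that replicates 1 to 3 were separate cultures, and each p-value reflects the scatter of these libraries alone, which may be technical.

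J proteins share a J domain that stimulates the ATPase of HSP70 chaperones and so locks a client protein into the chaperone. Class A members also carry a glycine- and phenylalanine-rich linker and a zinc-finger region, class B members the linker without the zinc finger, and class C members only the J domain, joined to many other kinds of sequence. Each compartment has its own pair of HSP70 and J proteins, with HSPA8 and HSPA1 proteins in the cytosol, HSPA5 (BiP) in the lumen of the endoplasmic reticulum (ER) and HSPA9 (mortalin) in the mitochondrial matrix.

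The promoter stretches below show where letters of the heat shock element, the site bound by the heat shock factor HSF1, stand in 4 members, and where those of the unfolded protein response element stand in DNAJC10. Sequences are from RefSeq on GRCh38.p14, written 5′ to 3′ on the gene's strand, 100 bases each, with the matched letters in capitals. The DNAJA1 stretch is chr9:33025189-33025288 on the + strand and reaches 16 bases past the annotated start. The DNAJB1 stretch, on the - strand, is chr19:14518398-14518497. Those of DNAJB6 (chr7:157336854-157336953), DNAJB4 (chr1:78004809-78004908) and DNAJC10 (chr2:182716107-182716206) lie on the + strand.
DNAJA1: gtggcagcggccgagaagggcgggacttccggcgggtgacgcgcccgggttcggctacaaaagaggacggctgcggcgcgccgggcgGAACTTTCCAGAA
DNAJB1: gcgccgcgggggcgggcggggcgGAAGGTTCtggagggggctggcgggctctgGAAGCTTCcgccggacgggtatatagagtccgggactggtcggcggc
DNAJB6: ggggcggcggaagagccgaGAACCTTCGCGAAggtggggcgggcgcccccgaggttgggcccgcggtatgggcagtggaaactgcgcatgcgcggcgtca
DNAJB4: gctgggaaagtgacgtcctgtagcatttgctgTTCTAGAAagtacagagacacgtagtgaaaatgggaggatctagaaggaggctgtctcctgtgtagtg
DNAJC10: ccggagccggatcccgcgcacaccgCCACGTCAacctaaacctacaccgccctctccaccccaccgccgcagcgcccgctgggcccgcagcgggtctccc

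Estimated counts summed to between 18985542 and 36054489 per library. RUVBL1 stood at 4681, 4654 and 4758 normalized counts in control replicates 1 to 3 and at 2725, 2618 and 2710 in the RUVBL1 siRNA libraries (57.1% of the control mean), as its label states. Normalized counts, used throughout, are counts scaled to the mean effective library size. All 10 luminal prostate markers were above the low-count filter and summed to between 119233 and 121573 in control and between 100019 and 103223 in RUVBL1 siRNA libraries. The list did not move as one: 7 of the 10 fell, while KLK3, HOXB13 and TMPRSS2 were not called (log2 fold changes -0.01, 0.02 and -0.03). Over all genes tested, 23.1% were called lower, and 44.2% of those with a mean of at least 1000 normalized counts. None of 3 basal markers and none of 5 neuron and testis markers passed the filter; KRT5, KRT14, PRM1, PRM2 and ODF1 were at 0. Of 9 stromal, endothelial and immune markers, PECAM1 matched no symbol and was not measured, 4 passed, and DCN and CD3E were at 0. Together the matched genes of this list held between 814 and 928 normalized counts in control and between 542 and 593 in RUVBL1 siRNA libraries. ACTA2 and CD68 fell (log2 fold changes -1.33 and -0.96), while COL1A1 and VWF were not called (0.01 and 0.21). The part of this decline in the results was not tested, nor was that of luminal markers. The labels name a single cell line and no other cell type. In bulk RNA of that line, fewer cells with a marker and less of its RNA per cell cannot be told apart. Both replicate 1 libraries stood apart from the others in genes listed at 0 in them alone, among them DNAJC3-DT, the RNA divergent from DNAJC3, with between 340 and 395 counts in each other library. All 37 tested members were above 0 in every library.

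After RUVBL1 siRNA, more of the family was lower than higher, by small amounts. Of the 42 members, 37 passed the low-count filter; 17 of these fell and 5 rose at an edgeR adjusted p under 0.05 over the 16006 genes tested. Across all tested genes, 42.2% were called, 23.1% lower and 19.1% higher. The groups did not overlap for all 22 called members; in all, 19 tested members lay lower and 6 higher without overlap, against 27.4% and 25.3% of all genes. DESeq2 called 17 members lower and 4 higher (38.1% of all genes called), and edgeR with the replicate number as a block 19 and 5 (49.0%). The median log2 fold change was -0.06 over the 37 members and 0.01 over all tested genes. The largest change belonged to DNAJA1, the only member that moved by more than 1.5-fold.

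Members are abundant, and abundant genes were called lower more often. Among genes with a mean of at least 1000 normalized counts, 44.2% were called lower and 24.1% higher. Of the 24 members at that level, 15 fell and 3 rose, with a median log2 fold change of -0.16 against -0.06 for all genes there. Scaling also bore on the split. With libraries scaled by their totals alone, 12 members fell and 9 rose, against 45.5% of all genes called, 14.4% lower and 31.1% higher. The median log2 fold change was then 0.11 over all genes and 0.04 over members. In replicates 2 and 3 alone, 18 members fell and 7 rose (45.1% of all genes called, 24.2% lower and 20.9% higher).

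**Figure D1:**
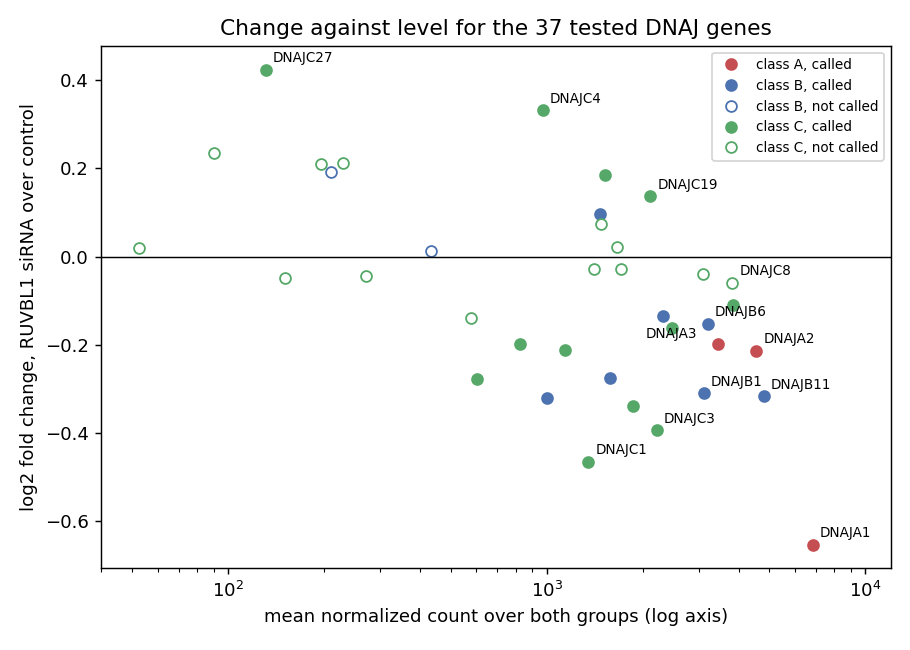
Each point is 1 of the 37 tested members, with the mean normalized count over both groups on a log axis and the log2 fold change on the vertical axis. Filled points passed an edgeR adjusted p of 0.05; DNAJA1 lies lowest, at -0.65, and DNAJC27 is the only called member below 200 normalized counts.

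The classes differed in how many members were called, although no test of the difference between classes was made. In class A, 3 of 3 tested members fell (median log2 fold change -0.21). In class B, 6 of 9 fell and 1 rose (median -0.15). In class C, 8 of 25 fell and 4 rose (median -0.04). Its share of 32% lower lies between the 23.1% over all genes and the 44.2% among genes with 1000 or more normalized counts. All 3 tested class A members averaged above 1000, and the classes were not matched for level. With libraries scaled by their totals alone, class A had 3 lower and 0 higher, class B 4 and 1, and class C 5 and 8. Over all genes, 14.4% were then lower and 31.1% higher. Summed over members, normalized counts in RUVBL1 siRNA libraries were 75.3% of the control mean for class A, 86.4% for class B and 94.4% for class C.

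By compartment the ER members were lower most often. Of 10 ER members, 8 fell and 0 rose, and all 10 had a log2 fold change below 0 (median -0.28); with libraries scaled by their totals alone, 7 fell and 0 rose. Over all genes 23.1% were lower and 19.1% higher (44.2% and 24.1% at 1000 or more normalized counts), or 14.4% and 31.1% with library totals alone. Of 15 tested cytosolic and nuclear members, 5 fell and 2 rose (median -0.03), or 3 and 5 with library totals alone. Of 5 tested mitochondrial members, 2 fell and 2 rose (median 0.07), or 2 and 3 with library totals alone. The cytosolic and mitochondrial shares lower, 33.3% and 40%, lie within the range of those over all genes and over abundant genes. Their shares higher, 13.3% and 40%, lie below and above that range, the mitochondrial one from only 5 tested members. Of 4 members of vesicles, endosomes and Golgi, 1 fell and 0 rose, and of 3 tested members placed nowhere with certainty, 1 fell and 1 rose. No test of the difference between compartments was made.

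**Figure D2:**
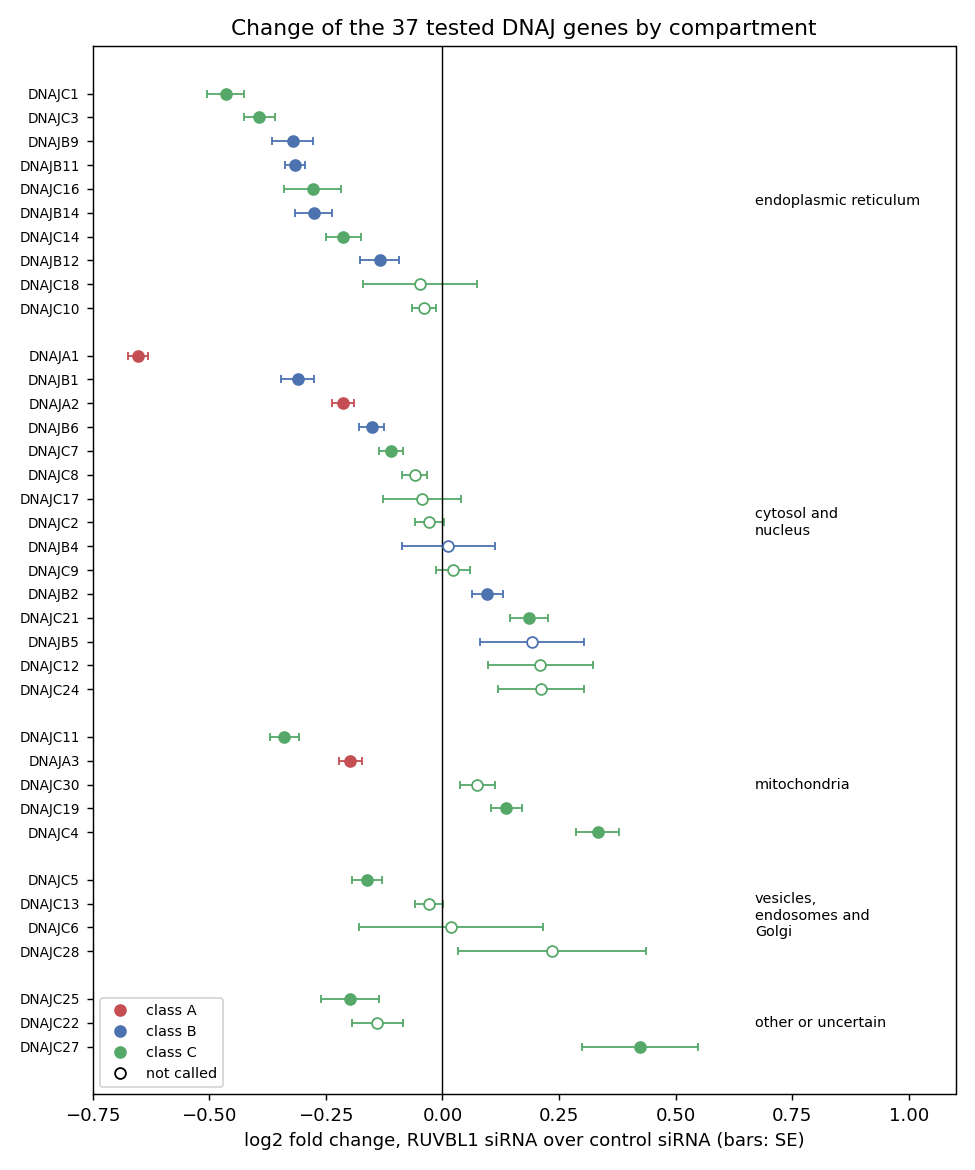
Points give the log2 fold change of RUVBL1 siRNA over control siRNA for each tested member, with its SE as a bar, grouped by compartment and coloured by class. The 10 ER members all lie left of 0, while the mitochondrial members run from -0.34 (DNAJC11) to 0.33 (DNAJC4).

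DNAJA1, the main class A partner of cytosolic HSP70, had the highest level per length of the family in control cells, 3511 normalized counts per kilobase of transcript, followed by DNAJB11 with 2606 and DNAJC8 with 2218. Its normalized counts were 8362, 8243 and 8472 in control libraries and 5450, 5185 and 5324 in RUVBL1 siRNA libraries. The groups were far apart: every RUVBL1 siRNA library lay below every control library, at 63.6% of the control mean. By edgeR it fell by 0.65 on the log2 scale (SE 0.021, adjusted p = 4.52e-10). DNAJA2, its close relative in the cytosol, moved less. It had 4869, 4777 and 5021 normalized counts in control and 4220, 4179 and 4257 in RUVBL1 siRNA libraries (log2 fold change -0.21, SE 0.0233, adjusted p = 1.2e-05). Both genes fell without overlap between groups, and the DNAJA1 to DNAJA2 count ratio, which no scaling of libraries can move, went from 1.71 ± 0.0202 to 1.26 ± 0.0269 (SD, n = 3 each). DNAJA4, another cytosolic class A gene, had at most 9 counts in a library and was not tested.

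Among cytosolic class B members, DNAJB1, the heat-inducible HSP40 that works with HSP70 in refolding and disaggregation, fell. Control libraries held 3463, 3434 and 3436 normalized counts and RUVBL1 siRNA libraries 2954, 2687 and 2699. Replicate 1 of the RUVBL1 siRNA group stood above its 2 fellows, but below all controls (log2 fold change -0.31, SE 0.0357, adjusted p = 1.83e-05). DNAJB6, a suppressor of amyloid and polyglutamine aggregation, fell by 0.15 on the log2 scale (adjusted p = 6.01e-04), a call lost with library totals alone (log2 fold change -0.05, adjusted p = 0.174). DNAJB2, a ubiquitin-interacting J protein abundant in neurons, rose by a log2 of 0.10 (adjusted p = 0.0336). That call was lost without control replicate 2 (adjusted p = 0.141), control replicate 3 (0.143), RUVBL1 siRNA replicate 1 (0.075) or replicate 2 (0.132), and without a low-count filter (0.0912). In these settings the log2 fold change lay between 0.08 and 0.09. DNAJB4 and DNAJB5, the closest relatives of DNAJB1, were not called, with log2 fold changes of 0.01 (SE 0.1) and 0.19 (SE 0.111). The testis-enriched genes DNAJB7 and DNAJB8 and the ciliary gene DNAJB13 had at most 13, 0 and 4 counts in a library.

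Heat shock element letters were present in the promoters of several of these genes. The pattern GAANNTTC was searched together with TTCNNGAA, each its own reverse complement, in windows from 250 bases before to 50 after the annotated start; of 42 members, 39 matched a RefSeq promoter. One or the other pattern was found for 8 of the 39 members (20.5%) and for 16.2% of all 27305 genes searched. Of the 5 tested members with a match, DNAJA1, DNAJB1 and DNAJB6 fell, while DNAJB4 and DNAJC6 were not called. Among the 29 tested members with a promoter and no match, 13 fell and 5 rose. For comparison, 23.1% of all tested genes were called lower and 19.1% higher. Among those with a mean of at least 1000 normalized counts, the shares were 44.2% and 24.1%. DNAJA1, DNAJB1 and DNAJB6 had control means of 8359, 3445 and 3369 normalized counts, and DNAJB4 and DNAJC6 of 432 and 52.1. Members with and without a match were not matched for level. A 3-unit pattern, GAANNTTC followed by NNGAA, contains both shorter ones and was searched on both strands. It was found in 0.608% of genes and, among members, in DNAJA1 (first base at position 4) and DNAJB6 (first base at position -131), as the capitals above show. In DNAJB1 the matches began at positions -77 and -47 of the start shown. A match is a description of letters and does not show that a factor binds.

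Of 8 cytosolic and nuclear class C members, 1 fell and 1 rose, or 12.5% each way (median log2 fold change -0.002). The shares over all genes were 23.1% lower and 19.1% higher, and 44.2% and 24.1% at 1000 or more normalized counts. The split in this group depended on scaling. DNAJC7 (TPR2), which hands clients between HSP70 and HSP90, fell by 0.11 on the log2 scale (adjusted p = 0.00464), and not with library totals alone (log2 fold change -0.01, adjusted p = 0.822). DNAJC21, a factor of large ribosomal subunit assembly, rose. Its normalized counts were 1478, 1455 and 1348 in control and 1640, 1562 and 1664 in RUVBL1 siRNA libraries. The groups did not overlap (log2 fold change 0.18, SE 0.0406, adjusted p = 0.00274). DNAJC8, a spliceosome-associated protein with the highest level per length of class C, had 3965, 3799 and 3940 normalized counts in control and 3840, 3709 and 3685 in RUVBL1 siRNA libraries. These groups overlapped and the gene was not called (log2 fold change -0.06, adjusted p = 0.0972), but it was called with the replicate number as a block (adjusted p = 0.0333), in replicates 2 and 3 alone (0.0416), without a low-count filter (0.0365), without control replicate 2 (0.039) and without RUVBL1 siRNA replicate 1 (0.0384); with library totals alone it had 0.04. DNAJC2, the ribosome-associated J protein, DNAJC9, a chaperone of histones H3 and H4, and DNAJC17, a splicing-associated protein, had log2 fold changes of -0.03, 0.02 and -0.04 and were not called. DNAJC12, a cochaperone of aromatic amino acid hydroxylases, and DNAJC24 (DPH4), of diphthamide synthesis, had 0.21 each and were not called at means of 181 and 212 normalized counts in control libraries. With library totals alone, DNAJC9, DNAJC12 and DNAJC24 were called higher (log2 fold changes 0.12, 0.31 and 0.31). DNAJC21 kept its call there, and 31.1% of all genes were called higher.

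Of the ER members, 4 of 4 in class B and 4 of 6 in class C fell, and 0 rose. The shares over all genes were 23.1% lower and 19.1% higher, and 44.2% and 24.1% at 1000 or more normalized counts. Control means of the class B members lay between 1113 (DNAJB9) and 5325 (DNAJB11). Among the lumenal partners of BiP, DNAJB11 (ERdj3) was the most abundant per length. It had 5265, 5255 and 5455 normalized counts in control and 4320, 4240 and 4276 in RUVBL1 siRNA libraries (log2 fold change -0.32, SE 0.0217, adjusted p = 2.09e-07). DNAJB9 (ERdj4) had 1107, 1135 and 1098 in control and 931, 904 and 840 in RUVBL1 siRNA libraries (log2 fold change -0.32, SE 0.0437, adjusted p = 7.37e-05). Both were about 80% of their control mean, with the groups apart. DNAJC3 (P58IPK), which also restrains eIF2α kinases such as PERK, had 2573, 2499 and 2477 in control and 1942, 1963 and 1846 in RUVBL1 siRNA libraries (log2 fold change -0.39, SE 0.0332, adjusted p = 1.28e-06). DNAJC10 (ERdj5), a disulfide reductase of ER-associated degradation, was the exception in the lumen. Its normalized counts were 3127, 3174 and 3088 in control and 3031, 3070 and 3040 in RUVBL1 siRNA libraries, lower without overlap by a small amount. The log2 fold change of -0.04 was not called (adjusted p = 0.265) and was 0.06 with library totals alone. DNAJC10 was also the only member whose promoter window held the unfolded protein response element TGACGTGG, on the reverse strand as the capitals above show; 0.927% of genes held it. The ER stress response element (CCAAT, 9 unspecified bases and CCACG) was in 0.0916% of genes, its second form (ATTGG, 1 unspecified base and CCACG) in 0.0696% and the amino acid response element TGATGCAA in 1.08%. Searched on both strands, none of these letters matched a member's window.

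DNAJC1 (ERdj1), an ER membrane protein, showed the largest change among ER members. Its normalized counts were 1624, 1534 and 1542 in control and 1156, 1078 and 1172 in RUVBL1 siRNA libraries. Every RUVBL1 siRNA library was below every control library, at 72.5% of the control mean (log2 fold change -0.46, SE 0.0399, adjusted p = 1.47e-06). DNAJB14 and DNAJB12 are related ER membrane proteins with a J domain in the cytosol. DNAJB14 had 1703, 1717 and 1770 in control and 1357, 1423 and 1505 in RUVBL1 siRNA libraries (log2 fold change -0.28, adjusted p = 1.05e-04). DNAJB12 fell by 0.13 on the log2 scale (adjusted p = 0.0213), a call lost with library totals alone (log2 fold change -0.04, adjusted p = 0.582), without control replicate 2 (adjusted p = 0.0653) and without RUVBL1 siRNA replicate 2 (0.097) or 3 (0.107). DNAJC16, another ER membrane protein, had 662, 692 and 636 normalized counts in control and 550, 512 and 579 in RUVBL1 siRNA libraries (log2 fold change -0.28, adjusted p = 0.00252). DNAJC14 had 1228, 1252 and 1194 in control and 1082, 1017 and 1075 in RUVBL1 siRNA libraries (log2 fold change -0.21, adjusted p = 6.89e-04). Groups did not overlap for these genes. DNAJC18, at a control mean of 153 normalized counts, had a log2 fold change of -0.05 (SE 0.122) and was not called.

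**Figure D3:**
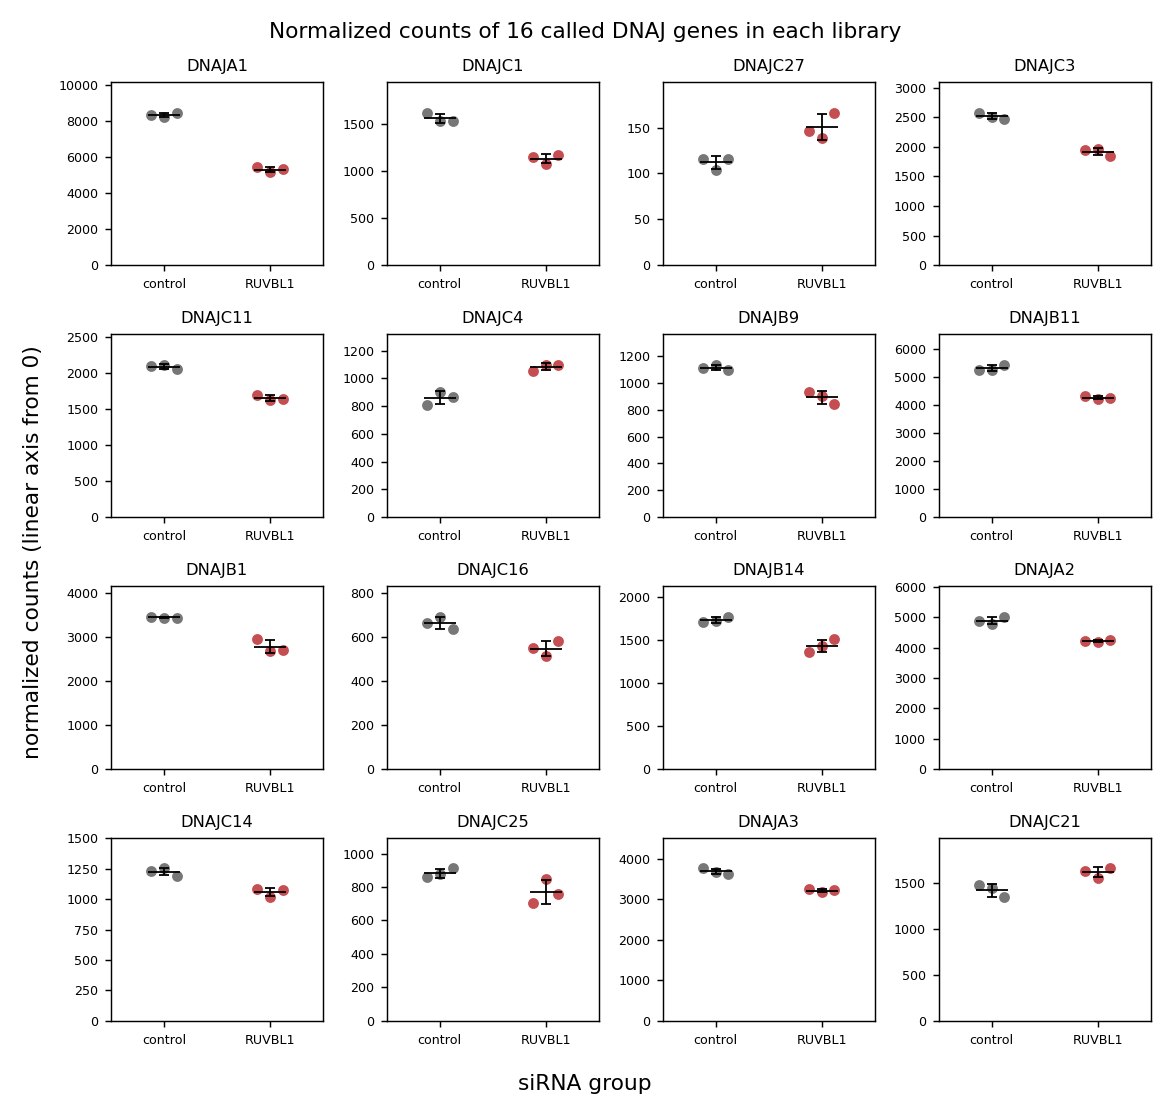
Points are the normalized counts of single libraries (grey, control siRNA; red, RUVBL1 siRNA), with the mean and SD of the 3 libraries in black, on linear axes from 0. The 16 called members with the largest log2 fold changes are shown; in each, the 2 groups of points do not overlap, from DNAJA1 with 8243 or more against 5450 or less to DNAJC25 with 858 or more against 845 or less.

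Mitochondrial members moved in opposite directions. DNAJC11, an outer membrane protein linked to cristae, had 2094, 2116 and 2055 normalized counts in control and 1695, 1620 and 1641 in RUVBL1 siRNA libraries (log2 fold change -0.34, SE 0.0314, adjusted p = 2.82e-06). DNAJA3 (TID1), the matrix cochaperone of mortalin, had 3761, 3666 and 3636 in control and 3242, 3184 and 3221 in RUVBL1 siRNA libraries (log2 fold change -0.20, SE 0.025, adjusted p = 4.15e-05). Against these falls, the groups of DNAJC4 and DNAJC19 separated the other way. DNAJC4, a mitochondrial class C protein, had 809, 904 and 866 in control and 1054, 1098 and 1097 in RUVBL1 siRNA libraries (log2 fold change 0.33, SE 0.046, adjusted p = 8.44e-05). DNAJC19 (TIM14), the J protein of the presequence import motor, had 1982, 2012 and 2048 in control and 2245, 2133 and 2269 in RUVBL1 siRNA libraries (log2 fold change 0.14, SE 0.033, adjusted p = 0.00497). The DNAJC4 to DNAJC11 count ratio went from 0.412 ± 0.0222 to 0.656 ± 0.0302 (SD, n = 3 each). As DNAJC4 was higher and DNAJC11 lower without overlap, the groups of this ratio could only lie apart, and it adds no separate evidence. DNAJC30, an inner membrane protein, had a log2 fold change of 0.07 and was not called, though it was called higher in replicates 2 and 3 alone (log2 fold change 0.12, adjusted p = 0.0128), without RUVBL1 siRNA replicate 1 (0.11, adjusted p = 0.0163) and with library totals alone (0.17, adjusted p = 0.00238). DNAJC15, a relative of DNAJC19, was listed at 0 in every library, which allows up to 3 counts in each.

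The remaining members sit on vesicles, endosomes or the Golgi or have no settled place. DNAJC5, the cysteine string protein of secretory vesicles and the most abundant of these per length, had 2669, 2613 and 2550 normalized counts in control and 2354, 2387 and 2260 in RUVBL1 siRNA libraries. The groups were apart (log2 fold change -0.16, adjusted p = 0.00131), but the call was lost with library totals alone (log2 fold change -0.06, adjusted p = 0.164). DNAJC13 (RME-8), of endosomal sorting, the clathrin-uncoating factor gene DNAJC6 (auxilin) and DNAJC28 had log2 fold changes of -0.03, 0.02 and 0.24 and were not called, the latter pair at control means of 52.1 and 82.8 normalized counts. DNAJC28 was called higher in replicates 2 and 3 alone (log2 fold change 0.45, adjusted p = 0.0316). DNAJC27 (RBJ), a small GTPase-like protein with a J domain, had the largest rise of the family. Its normalized counts were 116, 104 and 116 in control and 146, 139 and 166 in RUVBL1 siRNA libraries (log2 fold change 0.42, SE 0.123, adjusted p = 0.0149). The gene was low and the call fragile: it was lost in DESeq2 (adjusted p = 0.0505), without control replicate 2 (0.0699) and without RUVBL1 siRNA replicate 3 (0.0747). DNAJC25, a membrane protein, had 858, 880 and 911 in control and 705, 845 and 756 in RUVBL1 siRNA libraries (log2 fold change -0.20, adjusted p = 0.0215). RUVBL1 siRNA replicate 2 came close to the lowest control, and the call was lost with library totals alone (adjusted p = 0.207), without control replicate 2 (0.0767) or 3 (0.0949) and without RUVBL1 siRNA replicate 1 (0.0744) or 3 (0.0899). DNAJC22 had a log2 fold change of -0.14 and was not called (adjusted p = 0.0622), but was with the replicate block (0.0455) and without control replicate 3 (log2 fold change -0.18, adjusted p = 0.0427).

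The counts of some J protein genes were set against those of an HSP70 partner within each library, a ratio that no scaling of libraries can move. The HSP70 genes of these ratios were chosen after their values were seen. HSPA8 fell from 48727 ± 478 to 19741 ± 325 normalized counts (SD, n = 3 each), a log2 fold change of -1.30 that exceeds that of any J protein gene. The DNAJA1 to HSPA8 ratio was 0.170, 0.170 and 0.175 in control and 0.271, 0.266 and 0.271 in RUVBL1 siRNA libraries, 1.57-fold higher. For DNAJA2 the ratio to HSPA8 was 2.13-fold higher and for DNAJB1 1.99-fold higher. Relative to the summed counts of HSPA1A and HSPA1B, nearly identical genes whose reads can be split between them, DNAJB1 went from 0.192 ± 0.000289 to 0.246 ± 0.0153. DNAJA1, DNAJA2 and DNAJB1 counts were thus lower in level but higher relative to those of HSPA8. HSPA8 stood at 40.5% of its control mean, and any gene that fell by less has a higher ratio to it. These rises therefore reflect the fall of HSPA8 and are not a trait of the J protein genes.

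Partner ratios in the ER and mitochondria moved less. Relative to HSPA5, DNAJB11 went from 0.170 ± 0.0043 to 0.162 ± 0.00159, DNAJB9 from 0.0356 ± 0.00077 to 0.0337 ± 0.00159 and DNAJC3 from 0.0804 ± 0.00102 to 0.0724 ± 0.00276 (SD, n = 3 each). The ratio of DNAJC10 to HSPA5 was 1.15-fold higher. HSPA9 rose by a log2 of 0.12 (adjusted p = 4.98e-04), and the DNAJA3 to HSPA9 ratio went from 0.273 ± 0.00589 to 0.219 ± 0.00439, while that of DNAJC19 to HSPA9 overlapped between groups (0.149 ± 0.00437 and 0.151 ± 0.00635). Of 12 ratios computed, the groups did not overlap in 11, and each of these had p = 0.1 in the exact permutation test (two-sided), the smallest that 20 assignments of 3 against 3 allow (0.109 adjusted over the 12). DNAJC19 to HSPA9 had an exact p = 0.7. Over all genes, 27.4% lay lower and 25.3% higher without overlap, but no such share was computed for ratios. The HSP70 genes HSPA8, HSPA1B, HSPA5 and HSPA9 themselves did not overlap between groups. The count of ratios without overlap is thus not a result about the J protein genes alone.

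**Figure D4:**
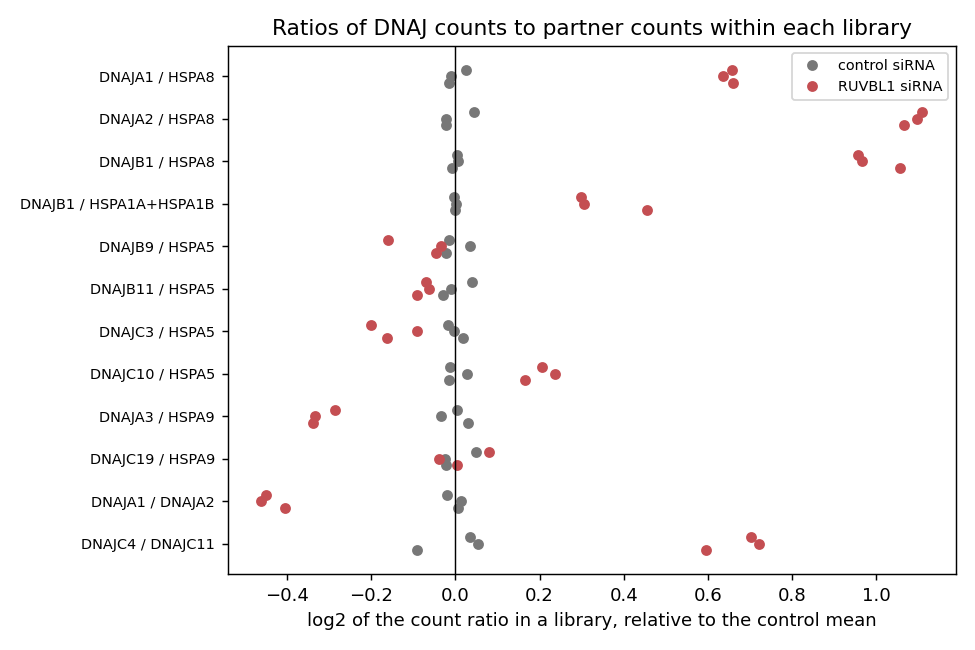
Each point is 1 library, giving the log2 of a count ratio relative to the control mean of that ratio (grey, control siRNA; red, RUVBL1 siRNA). The 3 ratios to HSPA8 average 0.65 (DNAJA1), 1.09 (DNAJA2) and 0.99 (DNAJB1) in log2 difference, while the points of DNAJC19 to HSPA9 overlap.

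Other genes of the HSP70 cycle were read from lists, whose counts stand beside 23.1% lower and 19.1% higher over all genes, 44.2% and 24.1% among genes with 1000 or more normalized counts, and 14.4% and 31.1% with library totals alone. Of 15 HSP70 and HSP110 genes, 8 fell and 1 rose (median log2 fold change -0.22). Besides HSPA8, the HSP110 gene HSPH1 (log2 fold change -0.83), HSPA1B (-0.66, uncertain because of HSPA1A) and the ER gene HYOU1 (-0.41) fell. Of 12 genes for nucleotide exchange and release, 7 fell and 2 rose (median -0.12), or 2 and 4 with library totals alone. SIL1, the exchange factor of BiP, had a log2 fold change of -0.59 and BAG3, of selective autophagy, of -0.37. GRPEL2, a mitochondrial exchange factor, rose by a log2 of 0.46. STUB1, a ubiquitin ligase that docks on HSP70, had -0.14 and lost its call with library totals alone (-0.04, adjusted p = 0.124). SEC63, a J domain protein of the ER translocon that lies outside the naming rule, fell by 0.38 on the log2 scale.

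Of 14 heat shock factors and HSF1 targets, 10 fell and 2 rose (median -0.14), or 6 and 2 with library totals alone. The chaperone genes HSP90AA1 and HSP90AB1 had log2 fold changes of -0.54 and -0.38, and the cochaperone genes STIP1 and FKBP4 of -0.54 and -0.44. HSF1 itself, chosen after its values were seen, had -0.09 (adjusted p = 0.0372). That call was lost in DESeq2 (adjusted p = 0.0632), with a filter of at least 50 counts (0.0569), without control replicate 2 (0.0635) or 3 (0.0992) and without RUVBL1 siRNA replicate 2 (0.149) or 3 (0.0794), and the sign turned with library totals alone (0.008, adjusted p = 0.896). Of 13 partners of ER J proteins, 9 fell and 3 rose (median -0.24). The disulfide isomerase genes PDIA4 and PDIA6 had log2 fold changes of -0.44 and -0.36, and the translocon genes SEC61A1 and SEC62 of -0.36 and -0.37. Of 15 tested partners of mitochondrial J proteins, 7 fell and 6 rose (median -0.09), or 3 and 7 with library totals alone. The import genes TIMM17A and TIMM50 had log2 fold changes of -0.25 and -0.22, and CHCHD3, of cristae, of -0.24. Some genes stand on more than 1 list.

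Reads shared with other genes could touch some members. Of 32 pseudogenes named after members, 21 were at 0 in every library; those of DNAJB6 held at most 4.42% of the count of DNAJB6 and those of DNAJC19 at most 1.72% of its own. In GENCODE 29, exons of 23 members, 11 of them called, overlap exons of another gene. For the deposited counts, the strand setting and annotation were not given in the sources used here. DNAJC11 shares 27.9% of its annotated exonic bases with THAP3 on the opposite strand (log2 fold change 0.33). DNAJC4 shares 10.6% with NUDT22 on the same strand (log2 fold change -0.25). Neighbours of called members went both ways: TECR, over 5.75% of DNAJB1, had -0.15, and TBCCD1, over 6.65% of DNAJB11, had 0.19. DNAJC14 shares 23.2% with AC023055.1 on the same strand (log2 fold change -0.009, mean 15.3 normalized counts). It also shares 21.9% with ORMDL2 on the opposite strand, which had a log2 fold change of -0.29, and 12.9% with TMEM198B (log2 fold change 0.45). The part of shared reads in these values was not tested.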

How the data were processed

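The 6 deposited files hold estimated counts per gene, as the authors made them, not scaled to library size: between 87.8% and 90.5% of values were whole. The submitters' processing notes name Bowtie 0.12.2 and the mouse builds mm8 and mm9, which conflict with the human Ensembl identifiers; counter, human build, annotation and strand setting were not given in the sources used here. Coordinates are those of RefSeq promoters only. Counts were rounded, symbols matched by stable identifier (51996 of 57820 genes), and gene type and length (median of the APPRIS principal transcripts) taken from GENCODE 29. Genes were tested in edgeR 4.0.16 (R 4.3.3; filterByExpr, TMM, robust quasi-likelihood fit on group alone; two-sided; Benjamini-Hochberg adjustment over 16006 genes); every adjusted p without another tool named is from this test. An SE is the fold change divided by the square root of F. Alternatives used DESeq2 1.42.0, limma 3.58.1 (voom), other scalings, filters, sets of libraries and a replicate block.

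Libraries with the same number deviated together across genes (correlations 0.939, 0.819 and 0.823; 0.423, 0.192 and 0.220 without genes at 0 in both replicate 1 libraries), and a fit with the number as a block was made for this reason, not from a label. Control replicate 2 correlated as highly with RUVBL1 siRNA replicate 3 (0.817; 0.176 without those genes) and control replicate 3 with replicate 2 (0.807; 0.137), so the values set replicate 1 apart and do not show which of the others belong together. No 2 files were identical, and each library was counted as 1 replicate (mean chi-square per gene between 1.71 and 3.93 within groups). The members, classes, compartments and lists were chosen with earlier results of these data known; compartments follow general knowledge. Members given by library were the 16 called members with the largest changes among those averaging 100 or more normalized counts, plus the most abundant per length of each class and compartment, and DNAJC10, chosen after its values were seen; partners were at most the 4 called genes of smallest p per list. The list of J domain proteins with other names is not reported in full here.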

Additional observations from a re-analysis of the deposited data

How the results depend on the processing

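Of the 22 called members, 15 kept direction and call in all 16 alternatives, and the 7 others (DNAJB12, DNAJB2, DNAJB6, DNAJC25, DNAJC27, DNAJC5 and DNAJC7) lost the call in at least 1 without a change of sign. With libraries scaled by their totals alone, 9 members were higher, 5 of them in the cytosol and nucleus, where 3 were lower. Without a low-count filter, 1 cytosolic or nuclear member was higher. With the replicate block, 19 members were lower and 5 higher, and it changed no call other than those of DNAJC8 and DNAJC22 among members. Leaving out 1 library at a time gave 3 to 5 members higher and 15 to 17 lower (3 higher without control replicate 2), with 1 to 2 higher and 5 to 6 lower in the cytosol and nucleus, 0 higher and 7 to 8 lower in the ER, and 2 to 3 higher and 2 lower in mitochondria (3 higher without RUVBL1 siRNA replicate 1). Some uncalled members, and HSF1, which was called lower, changed sign. With library totals alone the log2 fold change was 0.061 for DNAJC10, 0.071 for DNAJC13, 0.056 for DNAJC17, 0.051 for DNAJC18, 0.072 for DNAJC2, 0.040 for DNAJC8 and 0.008 for HSF1. DNAJB4 had -0.002 without a filter, and DNAJC9 had -0.011 in replicates 2 and 3 alone. Leaving out 1 library at a time gave log2 fold changes of -0.062 to 0.128 for DNAJB4, -0.099 to 0.042 for DNAJC18, -0.005 to 0.425 for DNAJC28, -0.109 to 0.108 for DNAJC6 and -0.010 to 0.048 for DNAJC9. The cause was not tested. Counts of at most 13 in DNAJA4, DNAJB7 and DNAJB13 were too few to test.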
